A study of Mus musculus with 2 samples.

Results

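The genes described here are 10 genes of cholesterol uptake, storage and trafficking in the adrenal gland: Scarb1, Cd36, Soat1, Lipa, Npc2, Npc1, Stard3, Stard4, Gramd1b and Abca1. They were chosen by name, and all 10 were found by GENCODE M21 gene name among the 55536 annotated genes of the deposited gene tables. Total RNA of whole adrenal gland was sequenced in 2 libraries, replicate 2 and replicate 1. Both were labelled as coming from male mice of the strain B6CASTF1/J, a first-generation hybrid, at 10 days of age, with no treatment in the labels, and both were made with a directional kit from an RNA input of 300 ng, to which ERCC synthetic transcripts had been added in known amounts. The libraries form 1 group, so nothing was set against a control, and the only contrast is between replicates.

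The labels conflict on the animals. The sample characteristics number the animal 4 for replicate 2 and 3 for replicate 1, but both library descriptions carry the number 3, and both samples share a donor identifier. The spread between the libraries may therefore be technical, and with 1 library per replicate no p-value was computed. Depth was 38984236 expected counts in replicate 2, against 36982665 in replicate 1. The adrenal identity was present in both: the summed level of 12 cortex markers was 6406 TPM in replicate 2 against 7396 in replicate 1, and that of 10 chromaffin markers was 1285 TPM in replicate 2 against 1541 in replicate 1. RNA of neighbouring or other tissues was also measured, with brown fat markers summing to 3076 TPM in replicate 2 against 3483 in replicate 1 and 8 liver markers to 14545 TPM in replicate 2 against 4609 in replicate 1.

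Steroid-producing cells of the adrenal cortex make hormone from cholesterol, which they take up from lipoproteins, keep as cholesteryl ester in lipid droplets, and deliver to mitochondria on demand. In mice the main route is selective uptake of cholesteryl ester from high density lipoprotein through the receptor encoded by Scarb1. Lipoprotein cholesteryl ester that enters by endocytosis is hydrolysed in lysosomes, leaves them through the Niemann-Pick proteins, and is moved between membranes by START domain and GRAMD1 carriers, while excess sterol leaves the cell through ABC transporters.

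The sequence of Scarb1 is shown because its 2 main transcripts differ in the exon that encodes the cytoplasmic end of the receptor. Scarb1 (ENSMUSG00000037936.15) lies on the minus strand at chr5:125277087-125341094 of the mm10 (GRCm38) assembly. Exon 12 of transcript Scarb1-201, at chr5:125281105-125281233, has 129 bases, of which 126 encode the last 42 codons of a 509-codon reading frame. In the sequence below, read from the GENCODE M21 transcripts, capitals mark the stop codon. The codons just before it encode the C-terminus that binds the scaffold protein PDZK1.
Scarb1-201 exon 12: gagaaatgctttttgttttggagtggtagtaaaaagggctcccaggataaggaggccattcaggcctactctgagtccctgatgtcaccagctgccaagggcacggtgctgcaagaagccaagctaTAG

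Transcript Scarb1-202 lacks that exon. It joins the preceding exon to the last one, reads 39 codons there at chr5:125277749-125277865 and has a reading frame of 506 codons, which is the form known as SR-BII. The 2 junctions are given below as 30 bases each, with the bases of the preceding exon in lower case and the bases of the exon that follows in capitals.
Scarb1-201 junction: caactgcgcagccagGAGAAATGCTTTTTG
Scarb1-202 junction: caactgcgcagccagGGTCCTGAAGACACT

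The 10 genes were all expressed, but over a wide range of levels. TPM is a level per transcript length, scaled to a fixed sum, and can be compared between genes. The median level of the members was 38.8 TPM in replicate 2 against 40.1 in replicate 1, while the median of the 22015 nuclear protein-coding genes was 2.49 TPM in replicate 2 and 2.26 in replicate 1. Their mean median was 39.4 ± 0.880 TPM (SD, n = 2). The highest member stood 58.5-fold above the lowest in mean TPM, 6 of the 10 were in the top 10% of nuclear protein-coding genes, and the lowest was at percentile 66.5. The uptake genes Scarb1 and Cd36 together made up 68.0% of the members' summed TPM in replicate 2 and 66.4% in replicate 1.

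**Figure D1:**
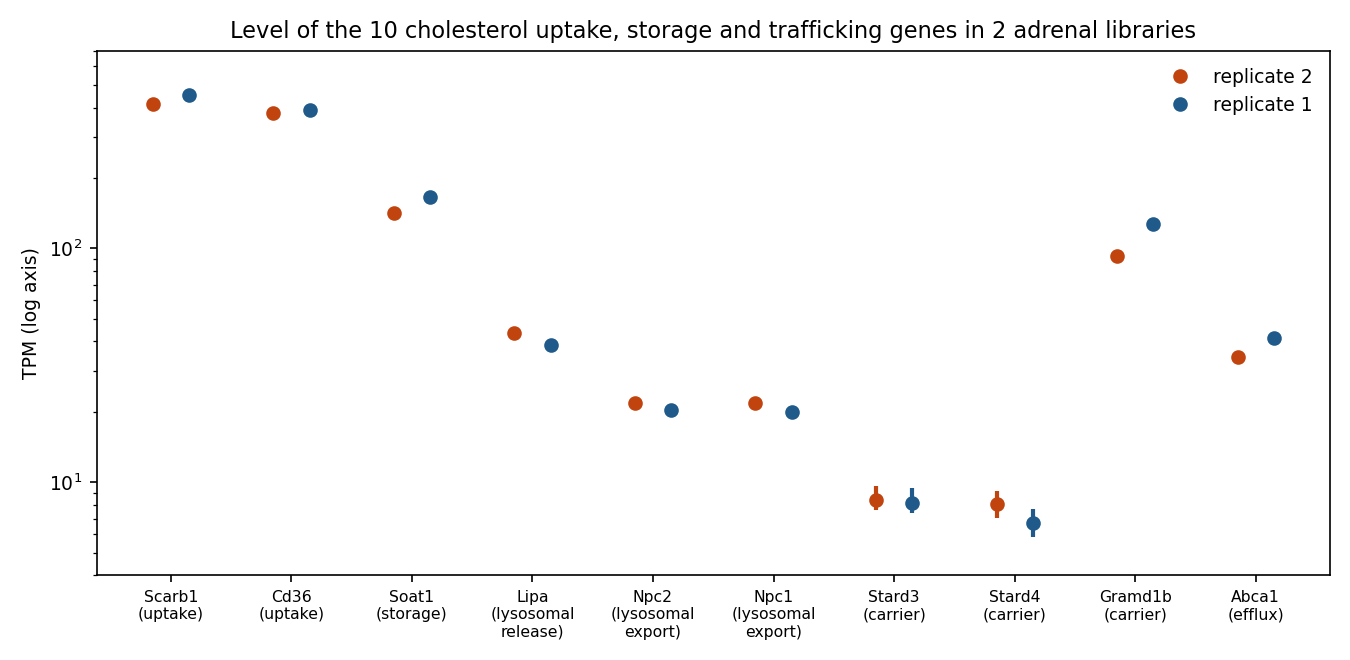
Level of each member in TPM on a log axis, ordered by role, with replicate 2 to the left of replicate 1; points are the deposited values and vertical lines the deposited interval bounds, mostly shorter than the points. Scarb1 and Cd36 stand between 379.75 and 454.32 TPM, and Stard3 and Stard4 below 10 TPM.

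In order of mean TPM the members were Scarb1, Cd36, Soat1, Gramd1b, Lipa, Abca1, Npc2, Npc1, Stard3 and Stard4. Of the 9 neighbouring pairs in this order, 7 had ranges over the 2 libraries that did not overlap. The exceptions were Lipa with Abca1 and Npc2 with Npc1, whose levels did not differ beyond their spread. By the interval bounds deposited with each TPM value, 6 pairs were apart, since Stard3 and Stard4 then overlapped too. These levels take all transcripts of a gene together. With coding transcripts alone, Stard4 stood above Stard3 in both libraries. The ranges of Scarb1 and Cd36 then overlapped, as did those of Soat1 and Gramd1b. The deposited TPM of Scarb1 lay above its own deposited upper bound in both libraries, 411.63 in replicate 2 and 453.01 in replicate 1, so the bounds are not centred on the values. Counts grow with transcript length and give another order: by expected counts Gramd1b and Abca1 stood in place 3 and 4, ahead of Soat1 in place 5.

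Scarb1, the receptor for high density lipoprotein, had 412.55 TPM in replicate 2 against 454.32 in replicate 1. Its mean of 433 ± 29.5 TPM (SD, n = 2) placed it at rank 73 among nuclear protein-coding genes. Scaled by TMM, an edgeR normalisation of library size, its 36004 expected counts in replicate 2 and 39086 in replicate 1 gave a ratio of replicate 2 over replicate 1 of 0.922, with a 95% counting interval of 0.909 to 0.935. The interval is computed from the 2 counts alone, so it covers counting error only and leaves out spread between library preparations. The reads carry no molecular identifiers, so copies of 1 molecule may be counted as separate reads. By that interval, Scarb1 was lower in replicate 2. In bulk tissue, fewer cells of a type and less RNA per cell cannot be told apart.

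Cd36 (ENSMUSG00000002944.15; chr5:17781690-17888801, minus strand), a scavenger receptor of the Scarb1 family that takes up long-chain fatty acids and modified lipoproteins, had 379.75 TPM in replicate 2 against 391.98 in replicate 1. Its ratio of scaled counts was 0.999 (95% counting interval 0.982 to 1.016), which holds 1. Scaled by library total the ratio was 0.947 (0.931 to 0.963), and by ERCC total 0.961 (0.945 to 0.977), both below 1. The level of Scarb1 was above that of Cd36 in both libraries, by 0.17 ± 0.07 on the log2(TPM + 0.1) scale (SD, n = 2). Cd36 is also abundant in adipocytes and capillary endothelium, whose markers were present: 8 adipocyte markers summed to 2499 TPM in replicate 2 against 2454 in replicate 1, and 9 endothelial markers to 318 TPM in replicate 2 against 323 in replicate 1. The part of these cells in the level of Cd36 was not tested.

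Soat1 (ENSMUSG00000026600.12; chr1:156424525-156474331, minus strand), which esterifies cholesterol for storage in droplets, had 141.85 TPM in replicate 2 against 165.5 in replicate 1. The mean was 154 ± 16.7 TPM, and the ratio of scaled counts was 0.850 (95% counting interval 0.829 to 0.870), lower in replicate 2. Its paralog Soat2, the esterifying enzyme of liver and intestine, had 2.68 TPM in replicate 2 against 1.07 in replicate 1. Soat1 exceeded Soat2 by 6.41 ± 1.04 on the log2(TPM + 0.1) scale, with 5.67 in replicate 2 and 7.15 in replicate 1. Soat2 itself was 2.53-fold higher in replicate 2, the library in which liver markers had a median ratio of 3.39. Whether the Soat2 reads came from such RNA was not tested.

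Lipa (ENSMUSG00000024781.16; chr19:34492318-34527474, minus strand) encodes lysosomal acid lipase, which frees cholesterol from lipoprotein cholesteryl ester. It had 43.32 TPM in replicate 2 against 38.74 in replicate 1, a mean of 41.0 ± 3.24 TPM. Its ratio of scaled counts was 1.139 (95% counting interval 1.092 to 1.189), higher in replicate 2. Lipe, the hormone-sensitive lipase that hydrolyses cholesteryl ester in droplets, was higher than Lipa at 146.61 TPM in replicate 2 against 140.04 in replicate 1. The level of Lipa lay below that of Lipe by a log2 difference of -1.80 ± 0.07. Lipe is also a marker of the adipocyte list, and the share of its level from fat was not tested.

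Npc2 (ENSMUSG00000021242.9; chr12:84754562-84773152, minus strand), the soluble protein that hands cholesterol to NPC1, had 21.73 TPM in replicate 2 against 20.38 in replicate 1. Npc1 (ENSMUSG00000024413.14), the membrane protein that exports it, had 21.89 TPM in replicate 2 against 20.02 in replicate 1. The partners stood at almost the same level per length, with a log2 difference of Npc2 over Npc1 of 0.01 ± 0.03. In the index-based table Npc2 lay above Npc1 by 0.29 on that scale. There, with another denominator of TPM, Npc2 had 33.5 TPM and Npc1 28.1 TPM in replicate 2. Of that level of Npc2, the retained-intron transcript Npc2-203 held 5.71 TPM in replicate 2 and 7.69 in replicate 1. Coding transcripts alone gave 27.4 TPM for Npc2 and 27.1 for Npc1 in replicate 2 by index, and 26.3 and 25.9 in replicate 1. By alignment they gave 20.3 and 17.9 TPM in replicate 2, and 19.0 and 15.7 in replicate 1. The likeness of the partners thus depends on the table and on the transcripts counted. The ratio of scaled counts was 1.081 (95% counting interval 1.021 to 1.144) for Npc2 and 1.127 (1.075 to 1.182) for Npc1. The interval of Npc2 held 1 when scaled by library total (0.967 to 1.084) or ERCC total (0.982 to 1.100), while that of Npc1 stayed above 1 under both. Npc1 shares genomic sequence with Rmc1 on the opposite strand, which had 20.2 TPM in replicate 2 against 15.7 in replicate 1. Whether counting used strand is not given in the sources used here, so reads in the overlap are uncertain.

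Stard3 (ENSMUSG00000018167.10; chr11:98358368-98381112, plus strand), a START domain protein anchored in late endosomes, had 8.41 TPM in replicate 2 against 8.19 in replicate 1. Its 527 expected counts in replicate 2 and 480 in replicate 1 were the fewest of any member, and its ratio of 1.099 had an interval of 0.969 to 1.246 that holds 1. Stard4 (ENSMUSG00000024378.9), a soluble sterol carrier, had 8.11 TPM in replicate 2 against 6.71 in replicate 1, with a ratio of 1.151 (1.051 to 1.261), whose interval held 1 when scaled by library total (0.996 to 1.195). Coding transcripts alone put Stard4 above Stard3. By alignment they gave 8.11 against 5.56 TPM in replicate 2, and 6.62 against 5.22 in replicate 1. By index they gave 9.64 against 8.46 TPM in replicate 2, and 9.56 against 8.44 in replicate 1. Star, the START protein that delivers cholesterol to the inner mitochondrial membrane, had 1459.69 TPM in replicate 2 against 1610.8 in replicate 1. Stard3 lay below Star by a log2 difference of -7.51 ± 0.13. Stard5, a close relative of Stard4, was somewhat higher than Stard4 in both libraries, with 11.7 TPM in replicate 2 against 9.33 in replicate 1.

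Gramd1b (ENSMUSG00000040111.16; chr9:40293233-40531383, minus strand), which encodes Aster-B, a protein that moves plasma membrane cholesterol to the endoplasmic reticulum, was the most abundant carrier among the members. It had 93.16 TPM in replicate 2 against 127 in replicate 1, a mean of 110 ± 23.9 TPM at rank 485. Its ratio of 0.753 (95% counting interval 0.738 to 0.769) was the farthest from 1 of the members. Its paralogs were lower: Gramd1a had 13.1 TPM in replicate 2 against 12.38 in replicate 1, and Gramd1c had 1.75 TPM in replicate 2 against 1.13 in replicate 1. Gramd1b exceeded Gramd1a by 3.08 ± 0.37 and Gramd1c by 6.17 ± 0.73 on the log2(TPM + 0.1) scale, and in both pairs the difference was smaller in replicate 2.

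Abca1 (ENSMUSG00000015243.4; chr4:53030787-53159895, minus strand), which loads cholesterol onto lipid-poor apolipoprotein A1, had 34.33 TPM in replicate 2 against 41.4 in replicate 1. The ratio of scaled counts was 0.841 (95% counting interval 0.821 to 0.861). Abcg1, which passes sterol to mature high density lipoprotein, had 4.3 TPM in replicate 2 against 3.55 in replicate 1, so the 2 efflux genes had opposite orders between the libraries. Abca1 exceeded Abcg1 by 3.24 ± 0.38 on the log2 scale.

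**Figure D2:**
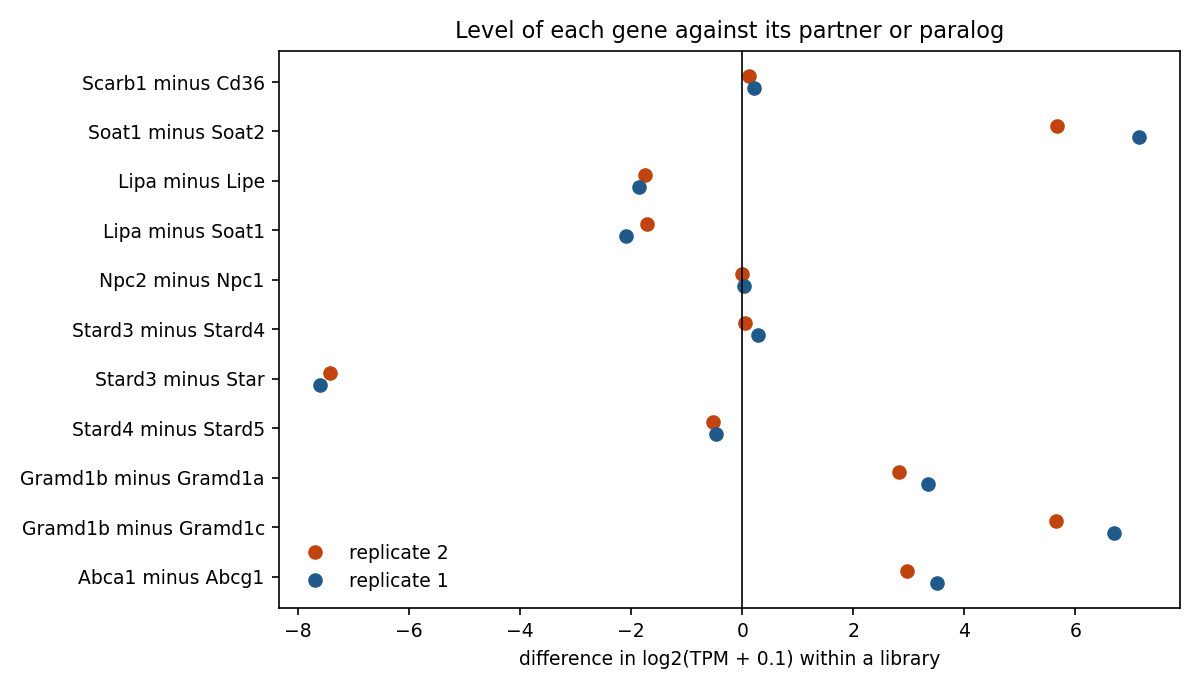
Difference in log2(TPM + 0.1) between each gene and its partner or paralog within a library, replicate 2 above replicate 1; positive values mean that the first gene is higher. Soat1 lies 5.67 above Soat2 in replicate 2 and 7.15 in replicate 1, and Npc2 and Npc1 lie near 0.

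Between the libraries, none of the 10 members was more than 2-fold apart, against 4.49% of the 13188 genes tested, those averaging 100 or more expected counts. Of the members, 5 were higher in replicate 2 and 5 lower, beside 48.9% of all genes tested with a ratio above 1. The higher ones were Lipa, Npc2, Npc1, Stard3 and Stard4. The lower ones were Scarb1, Cd36, Soat1, Gramd1b and Abca1. The counting interval left out 1 for 8 members, against 46% of all genes tested. It lay above 1 for 4 members, against 24.1% of all genes, and below 1 for 4, against 21.9%. It held 1 for Cd36 and Stard3. Counting intervals narrow as counts rise, and the members averaged 503.5 to 37545 expected counts. The shares of members and of all genes are therefore not matched for depth. These calls depended on the scaling: with library totals 2 intervals lay above 1 and 5 below, and with ERCC totals 3 above and 5 below, since Npc2 then held 1 under both, Stard4 held 1 with library totals, and Cd36 lay below 1 under both. The median log2 ratio was 0.06 for the members, with its sign turned when scaled by library total (-0.0224) or ERCC total (-0.00121), and -0.01 for all genes tested. The median size of the log2 ratio was 0.18 for the members and 0.13 for all genes.

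The cell type markers moved with the library as well. All 12 cortex markers were lower in replicate 2, with a median ratio of 0.886 and a range of 0.718 to 0.987, as were all 10 chromaffin markers, whose median ratio was 0.860. Hsd3b1, a steroid dehydrogenase, had 1531 TPM in replicate 2 against 1854 in replicate 1. The 9 macrophage markers tested were all higher in replicate 2, with a median of 1.63. Cd14, the marker of that list below the count minimum, went the other way. Named after its values were seen, it had 1.41 TPM in replicate 2 against 1.94 in replicate 1. The whole macrophage list summed to 116 TPM in replicate 2 against 69.9 in replicate 1. In replicate 2, all 8 liver and all 7 skeletal muscle markers exceeded replicate 1 by over 2-fold, with median ratios of 3.39 and 2.61. Every marker reached 1 TPM in both libraries except the adipocyte gene Lep, named after its values were seen, which had 2.84 TPM in replicate 2 against 0.51 in replicate 1. Of the tested adipocyte markers 7 of 8 were higher in replicate 2, of the brown fat markers 3 of 7, and of the endothelial markers 5 of 9. The part of tissue composition in the members' ratios was not tested.

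**Figure D3:**
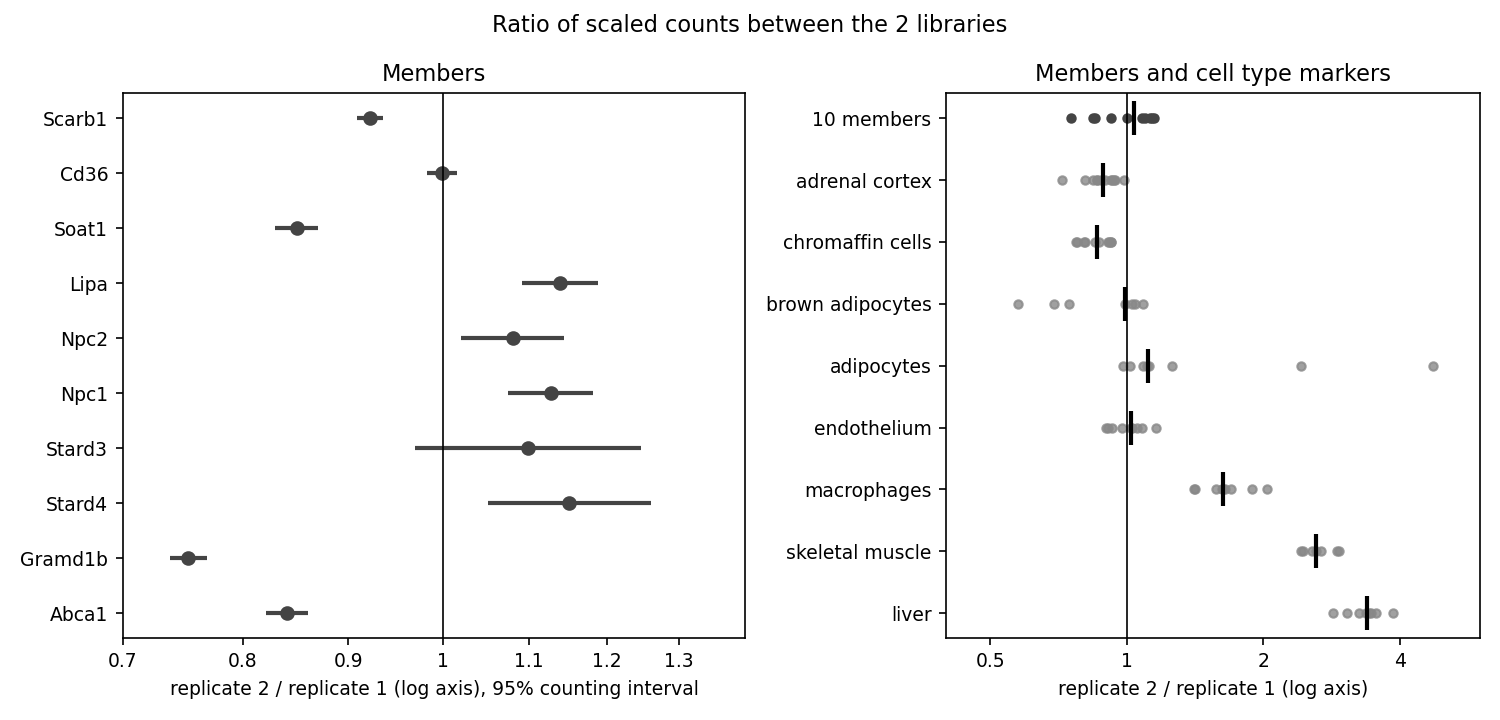
Left, ratio of TMM-scaled counts of replicate 2 over replicate 1 for each member with its 95% counting interval on a log axis. Right, the same ratio for the members and for the tested genes of 8 marker lists, each point a gene and each bar a median; liver markers lie between 2.85 and 3.86, and no member lies outside 0.753 to 1.151.

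Transcript shares were read from the transcript table made from alignments and from a second table made from an index. Members had 68 annotated transcripts, of which 30 held at least 10% of their gene's TPM in a library of either table. The most abundant transcript by TPM was the same in both libraries and both tables for 9 members, all but Cd36. By counts it was the same for 8 members, all but Cd36 and Soat1.

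Scarb1-201, with the PDZK1-binding end shown above, held 81.0% of Scarb1 TPM in replicate 2 and 80.8% in replicate 1 of the alignment-based table. Scarb1-202, without exon 12, held 12.1% in replicate 2 and 13.5% in replicate 1. The level of the first exceeded that of the second by 2.66 ± 0.12 on the log2 scale in the alignment-based table and by 2.85 in the index-based table, which is 6.32-fold and 7.23-fold. The index-based table gave Scarb1-201 only 60.8% in replicate 2 and 62.2% in replicate 1. There the noncoding transcripts Scarb1-204, of 469 bases, and Scarb1-206, of 638 bases, held 16.4% and 11.6% of TPM in replicate 2 and 17.2% and 10.1% in replicate 1. By estimated counts Scarb1-204 held 1.54% in replicate 2 and 1.58% in replicate 1 of the same table. The index-based TPM of Scarb1 was 1.98 times its alignment-based TPM, against a median of 1.57 and a middle 90% of 1.18 to 2.35 over 6117 protein-coding genes at 10 TPM or more.

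The tables differed for Cd36. Its transcripts begin at 3 groups of annotated 5′ ends, and Cd36-202 and Cd36-206 start 39018 and 53030 bases downstream of Cd36-203 while sharing its 472-codon reading frame. The upstream group, Cd36-203 and Cd36-205, held 79.0 ± 0.0619% of Cd36 TPM in the alignment-based table (SD, n = 2) and 33.2 ± 1.25% in the index-based table. Cd36-203 alone held 45.1% in replicate 2 and 44.2% in replicate 1 by alignment, and 0.318% in replicate 1 by index, with almost none in replicate 2. By index the most abundant transcript differed between libraries: Cd36-202 held 41.1% in replicate 2 and 31.1% in replicate 1, and Cd36-205 held 32.3% in replicate 2 and 33.7% in replicate 1. The middle group held 11.1 ± 1.36% and 41.7 ± 6.27% in the same tables, and the most downstream group 9.93 ± 1.30% and 25.1 ± 5.03%. The difference between tables was thus larger than the spread between libraries, and the tables gave the upstream and middle groups in opposite orders.

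Soat1 had 2 full-length coding transcripts with the same 540-codon reading frame. Soat1-201, of 2925 bases, held 39.5% of TPM in replicate 2 and 38.2% in replicate 1. A longer one, of 8371 bases, starts 7527 bases upstream and ends 5268 bases further downstream, with a last exon of 6591 bases against 1323. It held 12.1% of TPM in replicate 2 and 13.3% in replicate 1, but 43.0% of expected counts in replicate 2 and 46.1% in replicate 1, since counts grow with length. Soat1-201 held 47.9% of expected counts in replicate 2 and 45.2% in replicate 1, so the lead by expected counts changed between libraries. By the estimated counts of the index-based table the longer transcript led in both. Soat1-203, a retained-intron transcript of 509 bases, held 17.7% of TPM in replicate 2 and 22.5% in replicate 1 by alignment. By index it held 2.62% in replicate 2 and 2.68% in replicate 1. Soat1-206, a coding transcript of only 366 bases, held 16.6% in replicate 2 and 16.3% in replicate 1 by alignment, above the longer transcript. Its share by index was 4.65% and 6.09%. Soat1-204, of 821 bases, held 5.54% in replicate 2 and 4.19% in replicate 1 by alignment, and 20.5% and 22.4% by index.

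Gramd1b-201, of 20 exons, and Gramd1b-212, of 21 exons, share an 878-codon reading frame. Their last exons have 4847 and 1183 bases, but their annotated 3′ ends lie close together, at chr9:40293233 and chr9:40293245. Gramd1b-201 held 43.0% of TPM in replicate 2 and 42.6% in replicate 1, and Gramd1b-212 held 24.2% in replicate 2 and 23.3% in replicate 1. By index Gramd1b-201 held 49.2% in replicate 2 and 52.5% in replicate 1, and Gramd1b-212 held 13.8% in replicate 2 and 16.3% in replicate 1, so the ratio of the pair was 1.81 by alignment and 3.39 by index. A coding transcript of 2667 bases held 9.48% in replicate 2 and 10.8% in replicate 1 by alignment and was listed at 0 by index, while Gramd1b-213 held 2.46% in replicate 2 and 2.65% in replicate 1 by alignment, and 16.4% in replicate 2 and 13.3% in replicate 1 by index. Abca1-201 held 99.4% of Abca1 TPM in replicate 2 and 99.5% in replicate 1, and Npc2-201 held 93.6% in replicate 2 and 93.2% in replicate 1, by alignment. By index Npc2-201 held 81.7% in replicate 2 and 76.6% in replicate 1. Npc1-201 held 81.6% in replicate 2 and 78.2% in replicate 1, with the retained-intron transcript Npc1-206 at 14.3% in replicate 2 and 16.8% in replicate 1 by alignment and at 0 by index. Lipa-201 and Lipa-202 differ by 4 bases, and Lipa-201 held 87.7% in replicate 2 and 92.3% in replicate 1 by alignment. By index Lipa-201 held 70.2% in replicate 2 and 93.6% in replicate 1, and Lipa-202 held 24.5% and 0.228%. The split of this pair thus changed between libraries in that table. Stard3-201 held 66.1% in replicate 2 and 63.7% in replicate 1, and Stard4-201 held 62.8% in replicate 2 and 67.6% in replicate 1.

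**Figure D4:**
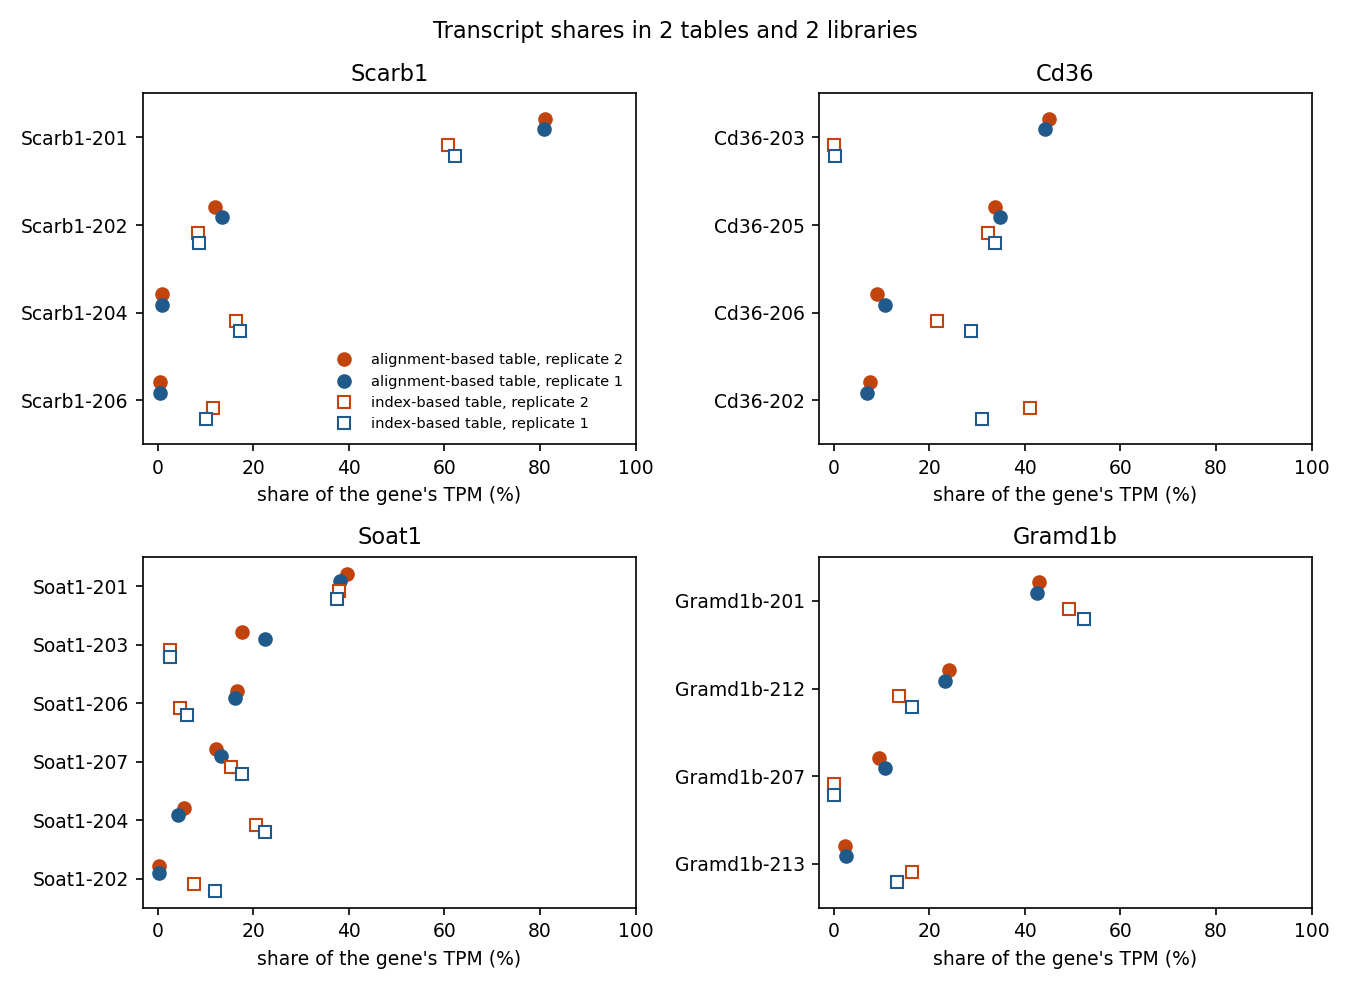
Share of gene TPM, in percent, held by each named transcript of Scarb1, Cd36, Soat1 and Gramd1b; filled circles are the alignment-based table, open squares the index-based table, and the colours are the libraries. Cd36-203 lies at 45.1% in replicate 2 and 44.2% in replicate 1 in one table and below 1% in the other.

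RefSeq promoter windows (GRCm38.p6), from 250 bases before to 50 bases after the annotated start, were matched for 6 of the members: Cd36, Soat1, Lipa, Npc2, Stard3 and Abca1. The window of Cd36 lay at its most downstream group of annotated 5′ ends, which held 9.93% of its TPM by alignment and 25.1% by index. That of Soat1 lay at the start of its longer coding transcript, not of Soat1-201. The other starts of these 2 genes were not searched. Both strands were searched for 5 short motifs, and a match describes letters, not a bound site. The NR5A motif CAAGGTCA, of the steroidogenic factor SF-1, was in none of the 6 windows and in 1.56% of all 32851 windows, and the cAMP response element TGACGTCA was in none and in 1.79%. The sterol response element TCACNCCAC, where N is any base, was in 1.24% of all windows and, among the members, in that of Stard3, 211 bases before the start. The E-box CACGTG, the core of the lysosomal CLEAR element, was in 7.15% of all windows and, among the members, in that of Abca1, 147 bases before the start. The GC box GGGCGG was in all 6 windows and in 35.7% of all windows. The share of G and C bases was 43% in the window of Cd36 and 59.3% to 63.3% in the others. The median over all windows was 52.7%, and the part of base composition in these matches was not tested. The 250 bases before the start of Stard3, at chr11:98358118-98358367 on the plus strand, and of Abca1, at chr4:53159896-53160145 on the minus strand, are shown because they hold the rarer matches; capitals mark all matches.
Stard3 upstream: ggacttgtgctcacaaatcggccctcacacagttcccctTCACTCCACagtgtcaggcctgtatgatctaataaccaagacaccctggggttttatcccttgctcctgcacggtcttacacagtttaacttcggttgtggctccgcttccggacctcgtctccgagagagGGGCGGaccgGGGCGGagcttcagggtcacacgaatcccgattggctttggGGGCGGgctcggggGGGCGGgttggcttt
Abca1 upstream: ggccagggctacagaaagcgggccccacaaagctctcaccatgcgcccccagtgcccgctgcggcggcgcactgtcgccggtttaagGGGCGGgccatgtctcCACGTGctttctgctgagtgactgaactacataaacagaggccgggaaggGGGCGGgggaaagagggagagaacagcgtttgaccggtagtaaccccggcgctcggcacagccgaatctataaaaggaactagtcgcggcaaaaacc

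The rest of the pathway was described with 7 lists of 75 gene names, of which 74 were matched and 69 passed the same count minimum. Their median level was 13.3 TPM in replicate 2 against 12.5 in replicate 1, below that of the members. Of the 69, 7 were more than 2-fold higher in replicate 2 and none was more than 2-fold lower, against 4.38% and 0.114% of all genes tested. The 7 were Lipc, Pdzk1, Lcat, Soat2, Stard10, Abcg5 and Abcg8. Lipc (hepatic lipase) had 18.5 TPM in replicate 2 against 5.44 in replicate 1, Lcat (plasma cholesterol esterification) had 29.84 TPM in replicate 2 against 9.91 in replicate 1, and Abcg8 (the biliary sterol transporter with Abcg5) had 7.74 TPM in replicate 2 against 2.39 in replicate 1. Pdzk1, the scaffold for the Scarb1 C-terminus shown above, had 3.02 TPM in replicate 2 against 1.1 in replicate 1. These genes are known to be abundant in liver. Their ratios, from 2.20 to 3.68, stand beside liver marker ratios of 2.85 to 3.86 and skeletal muscle marker ratios of 2.43 to 2.94. Stard10, at 2.20, and Soat2, at 2.53, lay below the liver range. The part of liver or muscle RNA was not tested.

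Among lipoprotein receptors and their regulators, the most abundant were Lpl (lipoprotein lipase) with 315.16 TPM in replicate 2 against 315.76 in replicate 1, Lrp1 with 56.34 TPM in replicate 2 against 55.34 in replicate 1, and Gpihbp1 with 50.99 TPM in replicate 2 against 51.87 in replicate 1. Of the 11 tested in that list, 8 had a ratio above 1. In the list of cholesteryl ester and droplet genes, Pnpla2 (adipose triglyceride lipase) had 429 TPM in replicate 2 against 405.34 in replicate 1, and Ces1d had 164.18 TPM in replicate 2 against 115.85 in replicate 1. The 12 endosome and lysosome partners stayed within 0.956 to 1.10 between libraries, 6 above and 6 below 1, with Psap at 292.78 TPM in replicate 2 against 274.36 in replicate 1. The 14 oxysterol binding proteins and contact site anchors were led by Osbpl9, with 49.37 TPM in replicate 2 against 49.09 in replicate 1, and Vapb, with 45.0 TPM in replicate 2 against 46.35 in replicate 1. Among efflux genes and liver X receptors, Nr1h2 was highest with 30.21 TPM in replicate 2 against 29.36 in replicate 1, below the level of Abca1 in both libraries. Ratios were above 1 for 8 of the 11 tested genes of that list, for 6 of 13 oxysterol binding and anchor genes, for 4 of 8 START carriers, for 4 of 4 GRAMD genes and for 7 of 10 cholesteryl ester and droplet genes. Stard7, a START protein of phosphatidylcholine transport, had 47.42 TPM in replicate 2 against 51.46 in replicate 1, and Lamp1, a lysosomal membrane protein, had 120.78 TPM in replicate 2 against 117.08 in replicate 1.

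**Figure D5:**
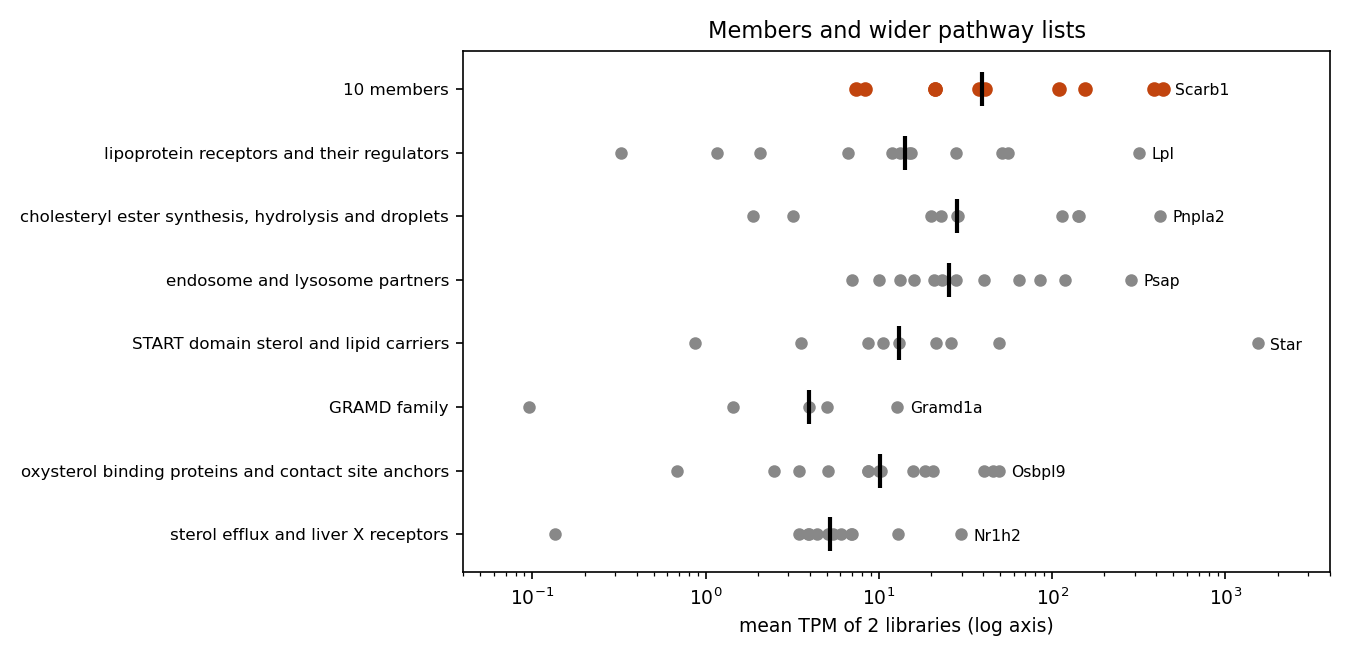
Mean TPM of the 2 libraries for the members and for the genes of 7 wider pathway lists, on a log axis, each point a gene and each bar the median of a list; the most abundant gene of each list is named. The members reach from 7.41 to 433 TPM, and Star at 1535 TPM is the highest gene of the lists.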

How the data were processed

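Total RNA-seq of adrenal gland was analysed in 2 libraries of 1 group. Per the file headers and the deposited notes, the authors quantified genes and transcripts from transcriptome alignments (build mm10 and the GENCODE M21 annotation), with RSEM-style columns of expected counts, not normalised, and TPM over all entries, and a second transcript table made directly from reads and an index, with kallisto-style columns of estimated counts and TPM. The deposited interval bounds of TPM carry no stated confidence level. The labels and headers name no aligner or tool version.

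Expected counts of annotated genes were scaled by TMM in edgeR 4.0.16 (R 4.3.3), and ratios of replicate 2 over replicate 1 used exact binomial (Clopper-Pearson) 95% intervals, and log2 ratios added 0.5 counts to each library. Genes averaging 100 or more expected counts were tested, and called at more than 2-fold. Levels within a library were compared as log2(TPM + 0.1). The interval computation was tested on simulated data. Total counts were 38984236 in replicate 2 and 36982665 in replicate 1. No p-values were computed. A comparison of 1 further gene is not reported here.

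Members and lists were chosen with earlier results of these data known. The text names all members, their transcripts holding at least 10% of TPM that matter for a result, the partners and paralogs set against them, the 3 most abundant genes of the wider lists or fewer, those more than 2-fold apart, and the leading markers; no gene is named for a pattern like that of a member, since 2 libraries of 1 group give no pattern across conditions. Alternatives were scaling by library total, DESeq2 1.42.0 size factors or ERCC total, the index-based table, other thresholds, priors and filters, and each library alone. Python 3.11.15, pandas 2.3.3, scipy 1.17.1 and matplotlib 3.10.9 were used.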

Additional observations from a re-analysis of the deposited data

How the results depend on the processing

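Under every scaling, count filter, 1.5-fold threshold and the index-based counts, 0 of 10 members passed the fold threshold, and 5 or, with index-based counts, 6 members were higher in replicate 2; the extra one was Cd36, with a ratio of 1.01. The median log2 ratio of the members was -0.0224 with scaling by library total and -0.00121 by ERCC total, against 0.06 with TMM, so its sign depends on the scaling; it was 0.05 to 0.06 with DESeq2 size factors, index-based counts or a prior of 5. The largest shift of another scaling from TMM was 0.08 on the log2 scale. The median level was 59.5 TPM in the index-based table and 118 TPM when rescaled over nuclear protein-coding genes, against 39.4 TPM, and was 38.8 to 40.1 TPM in a single library. With protein-coding transcripts only, an alternative chosen after seeing the data, it was 38.9 TPM. The order of members was the same in the index-based table, where 9 neighbouring pairs were apart in place of 7. Both counts take all transcripts of a gene. With coding transcripts alone, Stard4 stood above Stard3 by alignment and by index. Scarb1 then overlapped with Cd36, with 385.9 TPM in replicate 2 and 431.02 in replicate 1 against 379.74 and 391.99 by alignment. Soat1 overlapped with Gramd1b, with 104.63 and 119.21 against 79.67 and 107.95 TPM. Both pairs overlapped by index too. Of 30 transcript shares, 29 moved by more than the spread between libraries in the index-based table, and 27 when taken from expected counts, also chosen after seeing the data. No paired analysis was possible because there is 1 group. No single-gene ratio except that of Cd36 changed direction under the alternatives applied to the ratios. No pair difference outside its spread did so with another constant in place of 0.1, with index-based TPM or in each library alone. Coding transcripts alone did turn the log2 difference of Stard3 over Stard4, which was 0.168 ± 0.164 with all transcripts. By alignment they gave 5.56 against 8.11 TPM in replicate 2 and 5.22 against 6.62 in replicate 1. With library totals, 7 of 10 ratios moved past their counting interval, and with ERCC totals 5 of 10. This ended the calls of Npc2 (both) and Stard4 (library totals) and put Cd36 below 1 (both), a check chosen after seeing the data. Of the pair differences, 7 of 11 moved past their spread in the index-based table. The number of libraries limits every statement here to their spread, and depth limits the ratios of Stard3 and Stard4 most.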
